A study of Mus musculus with 4 samples.

Results

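The members of the set are 10 genes of the major heat-shock chaperones, namely Hspa1a, Hspa1b, Hspa8, Hspa5, Dnajb1, Hsph1, Hsp90aa1, Hsp90ab1, Hspd1 and Hspe1. They were chosen by symbol, and all 10 were found among the 31053 genes of the deposited tables. Immune cells (CD45+, the pan-leukocyte surface marker) had been sorted from the spinal cord of adult C57BL/6 mice and sequenced by the 10x droplet method in 4 libraries, 1 per condition. All mice had a laminectomy. The 2 sham groups received no contusion, and the 3dpi and 14dpi groups were taken 3 and 14 days after a moderate contusion at the thoracic level. Cells were released by warm enzymatic digestion. Actinomycin D (ActD), a blocker of transcription, was present during dissociation of the shamActD, 3dpi and 14dpi tissue, while the sham library was made by the standard protocol without it. The comparison of sham with shamActD therefore asks which chaperones change with the protocol in uninjured tissue, and the comparisons of 3dpi and 14dpi with shamActD ask which change after injury with ActD present throughout.

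Each library was a pool of mice with no replicate library. There is therefore no test, no standard error and no p-value in what follows, and every interval covers the error of counting molecules only. Per the file headers, sham and 3dpi were processed with software version 3.0.1, and shamActD and 14dpi with 3.1.0. Protocol and software version cannot be told apart in the comparison of sham with shamActD. Injury and version cannot be told apart in that of 3dpi with shamActD, nor time and version in that of 14dpi with 3dpi. After filtering, 5035 sham, 2135 shamActD, 8214 3dpi and 9078 14dpi cells were kept, with medians of 7426 to 9672 UMIs (unique molecular identifiers, 1 per captured RNA molecule) per cell, and pairs of libraries shared 3 to 36 cell barcodes. Cells were assigned to classes from marker genes, without using any chaperone. No class name was given to 689 sham, 283 shamActD, 2053 3dpi and 1200 14dpi cells, and these are left out of the class results. Microglia-like cells, called microglia here, numbered 2641, 1621, 989 and 4036 in sham, shamActD, 3dpi and 14dpi, and 10 of 10 microglial markers were detected in each library. Levels are given as CPM (counts per 10 to the power of 6), the UMIs of a gene summed over the cells of a class and scaled by the total UMIs of that class. CPM levels are compared between libraries and classes for 1 gene at a time.

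Heat-shock proteins hold unfolded proteins, refold them or hand them on. Under proteotoxic stress such as heat, the transcription factor HSF1 binds heat-shock elements, arrays of the short unit GAA in alternating orientation, and induces a subset of chaperone genes within minutes, whereas the constitutive members supply everyday folding. The chaperone of the endoplasmic reticulum is under another pathway, the unfolded protein response, which acts through the ER stress element (ERSE). In brain and spinal cord, warm enzymatic digestion is known to evoke such stress genes together with immediate early genes (IEGs) in microglia.

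The members fall into 4 roles. The cytosolic HSP70 proteins bind exposed hydrophobic stretches of clients in an ATP-driven cycle. Hspa1a (ENSMUSG00000091971, chr17:34969190-34972156, minus strand, GRCm38) and Hspa1b (ENSMUSG00000090877, chr17:34956436-34959238, minus strand) encode the strongly inducible HSP70 and lie side by side. Hspa8 (ENSMUSG00000015656, chr9:40800984-40810087, plus strand) encodes the constitutive HSC70. A pair of partners serve the HSP70 cycle. Dnajb1 (ENSMUSG00000005483, chr8:83608193-83612653, plus strand) encodes the J-domain protein HSP40 that delivers clients and starts ATP hydrolysis. Hsph1 (ENSMUSG00000029657, chr5:149614287-149636376, minus strand) encodes HSP105, a nucleotide exchange factor. The cytosolic HSP90 proteins complete the folding of kinases and steroid receptors. Hsp90aa1 (ENSMUSG00000021270, chr12:110690605-110702728, minus strand) is the more inducible form and Hsp90ab1 (ENSMUSG00000023944, chr17:45567775-45573271, minus strand) the more constitutive one. The last role is that of the organelle chaperones. Hspa5 (ENSMUSG00000026864, chr2:34771970-34777547, plus strand) encodes BiP, the HSP70 of the endoplasmic reticulum. Hspd1 (ENSMUSG00000025980, chr1:55077835-55088243, minus strand) and Hspe1 (ENSMUSG00000073676, chr1:55088132-55091307, plus strand) encode the mitochondrial chaperonin HSP60 and its lid HSP10, and are transcribed head to head with overlapping starts.

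Sequence upstream of the transcription start was compared for the members, since their levels moved apart between the protocols. RefSeq promoters (GRCm38.p6) were matched for 7 of the 10 members. Over the 250 bases before the start, a pair of adjoining heat-shock units (GAANNTTC or TTCNNGAA, both strands) was found in 12.8% of 32851 promoters. A run of 3 such units at the same spacing (either orientation, both strands, which contains 2 overlapping pairs) was found in 0.466%. The ERSE, the letters CCAAT followed after 9 bases of any kind by CCACG (both strands, and containing a CCAAT box), was found in 0.113%. The next lines show bases 120 to 21 before the start of Hspa1a (chr17:34972177-34972276, minus strand), where the pair is in capitals, and of Dnajb1 (chr8:83608055-83608154, plus strand), where none of these elements was matched. They are shown because these genes were higher with the standard protocol in microglia. Both windows lie outside annotated exons. The window of Hspa1b (chr17:34959259-34959358, minus strand) has the same 100 letters as that of Hspa1a, and the 250 bases upstream of the 2 genes differed at 3 positions (98.8% identity).
Hspa1a: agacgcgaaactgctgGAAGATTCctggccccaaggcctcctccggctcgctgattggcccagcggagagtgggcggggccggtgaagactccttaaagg
Dnajb1: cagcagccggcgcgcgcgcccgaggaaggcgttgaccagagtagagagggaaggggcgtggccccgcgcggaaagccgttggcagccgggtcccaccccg
For comparison, 30 bases around the matched elements are given for Hspa5 (chr2:34772020-34772049, plus strand), with the ERSE in capitals, and for Hspe1 (chr1:55088053-55088082, plus strand) and Hsph1 (chr5:149636351-149636380, minus strand), with the heat-shock units in capitals. Bases 120 to 21 before these starts overlap annotated exons, by 100 bases for Hspa5 (exon of Hspa5) and Hspe1 (exon of Hspd1) and by 41 for Hsph1 (exon of Hsph1). Hspa5 was higher with the standard protocol in microglia, while Hspe1 and Hsph1 were lower, with ratios near the median of all genes.
Hspa5: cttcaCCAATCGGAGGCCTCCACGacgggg
Hspe1: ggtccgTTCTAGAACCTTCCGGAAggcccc
Hsph1: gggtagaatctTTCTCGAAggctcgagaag
The units of Hspe1 form an unbroken run that also lies upstream of 1 of the 2 annotated starts of Hspd1, on the other strand. Within the 250 bases before the start, a heat-shock pair or run was matched for Hspa1a, Hspa1b, Hsph1, Hspd1 and Hspe1, and for neither Dnajb1 nor Hspa5. The part of such elements in the protocol differences was not tested. A match is only a match of letters, and elements farther away were not searched.

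In microglia, 4 of the 10 members were at least 2-fold higher in sham than in shamActD, against 6.45% of the 12172 genes that reached 20 UMIs in the pair, and none was at least 2-fold lower, against 24.6% of the genes. The 4 were Hspa1a, Hspa1b, Dnajb1 and Hspa5. The median log2 ratio of the members was 0.71, while that of all these genes was -0.57. A log2 ratio near -0.57 is thus what the typical gene showed. Scaling by TMM (trimmed mean of M-values), which centres the bulk of the genes, adds 0.56 to each log2 ratio. After that step the count was 6 of 10, with Hspa8 and Hsp90aa1 added.

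Hspa1a showed the widest difference of the members. Its level was 166 CPM in sham (3423 UMIs), 1.97 in shamActD (35 UMIs), 16.2 in 3dpi and 2.85 in 14dpi. Only the sham library was high, 84.6-fold over shamActD (95% counting interval 60.7 to 122) and 10.2-fold over 3dpi, the next highest. Its neighbour Hspa1b stood at 32.1 CPM in sham, 3.20 in shamActD, 8.43 in 3dpi and 3.68 in 14dpi. The log2 ratio of sham over shamActD was 3.33 (2.93 to 3.74). The last 500 bases of the 2 transcripts shared no window of 100 bases with each other or with another gene, so reads from the sequenced ends can be assigned to either gene. Hspa1a overlaps Gm20481 on the other strand, and whether counting used strand is not given in the sources used here.

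Dnajb1, the J-domain partner of these proteins, was at 137 CPM in sham, 41.7 in shamActD, 34.1 in 3dpi and 27.5 in 14dpi. Sham was 3.29-fold higher than shamActD (3.04 to 3.58), and the 3 ActD libraries lay close together below it. Hspa5 (BiP) was at 2503 CPM in sham, 796 in shamActD, 766 in 3dpi and 881 in 14dpi. Its sham level was 3.15-fold that of shamActD (3.09 to 3.20), again with the 3 ActD libraries in a narrow range. The endoplasmic reticulum chaperone thus moved in the same direction as the inducible cytosolic members.

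The remaining members changed by less than 2-fold with the protocol. Hsp90aa1 was at 579 CPM in sham, 304 in shamActD, 553 in 3dpi and 274 in 14dpi. The sham level was 1.90-fold that of shamActD (1.84 to 1.97) but only 1.05-fold that of 3dpi, so sham and 3dpi stood together above shamActD and 14dpi. Software version divides the libraries in the same way, and its part was not tested. Hspa8 was at 1223, 869, 1487 and 1101 CPM in the same order and Hsp90ab1 at 1191, 1075, 1918 and 1486 CPM, and both were highest in 3dpi. For Hspa8, 79.3% of the 100-base windows of its last 500 bases also occur in pseudogenes, so its counts are uncertain. The mitochondrial pair went the other way from the inducible members. Hspd1 was at 94.8 CPM in sham against 156, 168 and 162 in shamActD, 3dpi and 14dpi, and Hspe1 at 194 against 259, 427 and 426. Hsph1 was at 19.1 CPM in sham, 31.0 in shamActD, 17.3 in 3dpi and 28.3 in 14dpi. The log2 ratios of sham over shamActD were -0.72 (-0.80 to -0.64) for Hspd1, -0.42 (-0.48 to -0.35) for Hspe1 and -0.70 (-0.89 to -0.51) for Hsph1, near the median of all genes, and with TMM scaling they became -0.16, 0.14 and -0.14, so that of Hspe1 changed sign. For Hspe1, 34.4% of the windows at its end occur in 1 other gene.

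**Figure D1:**
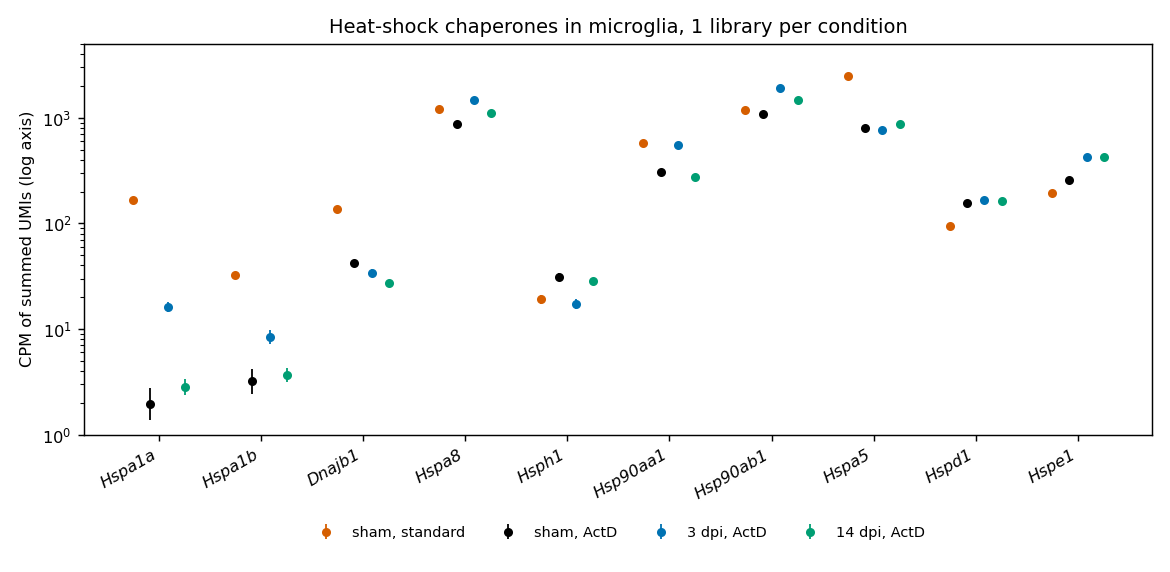
Level of each chaperone in microglia, in CPM of summed UMIs on a log axis, for the 4 libraries (points) with 95% counting intervals (bars, often smaller than the point). The sham point of Hspa1a, at 166 CPM, is 10.2-fold above the next library, those of Hspa1b, Dnajb1 and Hspa5 are also apart from the 3 ActD libraries, and Hspd1 and Hspe1 are lowest in sham.

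In 3dpi microglia, 2 of the 10 members were at least 2-fold higher than in shamActD, against 13.9% of 12445 genes, and 0 were at least 2-fold lower, against 32.6%. The 2 were Hspa1a (log2 ratio 3.05, 2.54 to 3.59) and Hspa1b (1.40, 0.96 to 1.85). The value of Hspa1b rested on 1 cell, which held 103 of the 179 Hspa1b UMIs of the 989 microglia. Without that cell Hspa1b was at 3.58 CPM, near the 3.20 of shamActD (log2 ratio 0.24 without the highest cell of each library), while Hspa1a was at 13.6 CPM (2.92). Of the other 8 members, 4 had log2 ratios between 0.72 and 0.86, short of 2-fold. They were 0.86 (0.82 to 0.91) for Hsp90aa1, 0.84 (0.81 to 0.86) for Hsp90ab1, 0.77 (0.75 to 0.80) for Hspa8 and 0.72 (0.67 to 0.77) for Hspe1. Hspd1 was at 0.10, Hspa5 at -0.06 and Dnajb1 at -0.29, against a median of -0.52 over all genes, and with TMM scaling, which adds 0.50, Hspa5 and Dnajb1 were above 0. Hsph1 was lower on both scales (-0.84, and -0.34 with TMM). With TMM, 6 members passed the 2-fold mark.

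In 14dpi microglia, none of the 10 members was at least 2-fold higher than in shamActD, against 5.44% of 12585 genes, and none was 2-fold lower, against 21.3%. The log2 ratio of Hspe1 was the highest at 0.72 (0.67 to 0.76). Hspa1a was at 0.53 with an interval that included 0 (-0.01 to 1.11), and Hsp90ab1, Hspa8, Hspa1b, Hspa5 and Hspd1 were between 0.05 and 0.47. Hsph1 (-0.13) and Hsp90aa1 (-0.15) were on the other side of 0 and changed sign with TMM scaling. Dnajb1 was lowest at -0.60 (-0.73 to -0.47), close to the median of -0.57 over all genes. These 2 libraries carry the same software version. The 3 comparisons share the shamActD library, so their values are set side by side and not correlated.

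Between the injured libraries, 3 of the 10 members were at least 2-fold lower in 14dpi than in 3dpi microglia, against 16.1% of 12752 genes. Hspa1a stood at -2.51 (-2.81 to -2.22), Hspa1b at -1.19 and Hsp90aa1 at -1.01 (-1.05 to -0.98) on the log2 scale, and with TMM scaling Hsp90aa1 was at -0.99, just short of 2-fold. With the cluster led by cell cycle genes left out, an alternative chosen after seeing the data, 2 of the 3 stayed past 2-fold. In 3dpi, 384 cycling microglia held 669 CPM of Hsp90aa1 and the other 604 held 462. In 14dpi only 8 cells of the microglia class were cycling, and its other cells held 274 CPM. Clusters were named per library, and 1200 cells of 14dpi had no class name. How many of those were cycling microglia was not examined. The Hspa1b value again rests on the single 3dpi cell. The other 7 members lay between -0.43 and 0.71. None of the 10 members was 2-fold higher, against 11.5% of the genes.

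The microglia of the libraries also differed in other measured ways. The summed level of the 10 macrophage markers in microglia was 3286 CPM in 3dpi and 671 in 14dpi against 42 in shamActD and 13 in sham, while the microglial markers summed to 5524, 11498, 24901 and 13571 CPM. Of the 3dpi microglia, 478 were in a cluster led by cell cycle genes. In sham over shamActD microglia, 18 of 20 cell cycle genes were at least 2-fold lower (median log2 ratio -3.79), against 18.9% of 9129 genes. The part of these differences in the chaperone values of sham and 3dpi was not tested. With the cycling cluster left out, an alternative chosen after seeing the data, the count in sham over shamActD was 5 of 10 and that in 3dpi over shamActD stayed at 2.

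The protocol comparison was repeated in the other classes present in both sham libraries. Macrophages numbered 66 in sham, 65 in shamActD, 2533 in 3dpi and 94 in 14dpi. Those of sham, shamActD and 14dpi were all in 1 cluster of border-associated macrophages, while 2371 of the 3dpi cells were in another. The 3dpi class held 3841 cells when clustered at resolution 1.2. The 3dpi cells without a class name held 11177 CPM of the macrophage markers. In macrophages, 5 of the 10 members were at least 2-fold higher in sham than in shamActD, against 5.8% of 6256 genes, and 0 were 2-fold lower (17.9% of genes). They were Hspa1a, Hspa1b, Hsp90aa1, Dnajb1 and Hspa5. Hspa1a reached 1026 CPM in sham against 7.03 in shamActD, 14.9 in 3dpi and 13.8 in 14dpi, and only 5 UMIs of it were found in shamActD. The ratio was 146-fold (62.1 to 451), against 84.6-fold in microglia. Hspa1b was at 445, 5.63, 3.52 and 9.22 CPM in the same order. Both were again high in the sham library alone. The sham macrophages also held 1271 CPM of the 10 B cell markers against 212 in shamActD, and the microglial markers in the macrophage class summed to 2021, 4362, 979 and 6997 CPM in sham, shamActD, 3dpi and 14dpi, above the 5748 CPM of the macrophage markers in 14dpi. The part of these in the chaperone values was not tested. Hsp90aa1 was at 923, 197, 426 and 310 CPM, Dnajb1 at 116, 38.0, 23.6 and 54.2 CPM and Hspa5 at 2142, 1054, 777 and 892 CPM. In macrophages, unlike in microglia, Hsp90aa1 stood well above 3dpi too, by 2.17-fold. The other 5 members had log2 ratios of sham over shamActD between -0.64 (Hspd1) and 0.72 (Hspa8).

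After injury, 2 of the 10 macrophage members were at least 2-fold higher in 3dpi than in shamActD, Hsp90aa1 (log2 ratio 1.11, 0.87 to 1.36) and Hspa1a (1.08, -0.15 to 2.71), against 17.4% of 11851 genes, and 0 were 2-fold lower (34.3%). Within the border-associated cluster alone, an alternative chosen after seeing the data, Hspa1a was at 2.56 and Hspa1b at 1.02 in 3dpi over shamActD. In 14dpi, 0 of 8 members with enough UMIs passed, against 4.84% of 7278 genes, and 0 were 2-fold lower (5.78%). In those macrophages Hspa1a and Hspa1b had 12 and 8 UMIs and were not counted. Hsph1, at 39.2 CPM against 19.7, came nearest with a log2 ratio of 0.99 (0.06 to 2.01).

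Neutrophils numbered 387 in sham, 102 in shamActD, 1839 in 3dpi and 1209 in 14dpi. The 10 neutrophil markers together made up 317564, 358815, 54429 and 371757 CPM, so the 3dpi neutrophils had far fewer of the UMIs that fill the other libraries, and the median log2 ratio of all genes in 3dpi over shamActD was 1.13. In sham over shamActD, where that median was 0.06, 7 of the 10 members were at least 2-fold higher, against 16.8% of 7401 genes, and 0 were 2-fold lower (8.12%). Hspa1a had no UMI in shamActD neutrophils and 42.7 CPM in sham, at least 24.0-fold higher when 3 counts are taken as the floor of the shamActD neutrophils. It was at 28.2 CPM in 3dpi and 3.12 in 14dpi. Hspa1b was at 27.3 CPM in sham against 1.19 (2 UMIs) in shamActD, a ratio of 23.0 with a wide interval of 6.18 to 193. In the sham neutrophils 1 cell held 55 of the 138 Hspa1a UMIs and 43 of the 88 Hspa1b UMIs, and without it the levels were 25.9 and 14.0 CPM. Dnajb1 (69.7 against 22.5 CPM), Hsp90aa1 (198 against 58.7), Hspa5 (439 against 201), Hspe1 (2.95-fold) and Hsph1 (6.50 against 0.593, 1 UMI, interval of the fold 1.77 to 454) were the other 5. Of the 7, Hspa1a, Hspa1b and Hsph1 entered the count through their sham UMIs, 138, 88 and 21 against 0, 2 and 1.

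In 3dpi over shamActD neutrophils, 9 of the 10 members were at least 2-fold higher, but so were 53.5% of 9332 genes, and 0 were 2-fold lower (7.02%). The median log2 ratio of the members was 2.78 against 1.13 over all genes. With TMM scaling, which takes off 0.98, only Dnajb1 was below 0 and 6 of the 10 members stayed past 2-fold. Hspa1a, with 0 UMIs in shamActD, was at least 15.8-fold higher in 3dpi before that step. Hspa1a, Hspa1b and Hsph1 entered both counts through their 3dpi UMIs, 125, 43 and 43. The TMM values of Hsph1 and Hspa1b, 3.05 and 2.05, rest on 1 and 2 UMIs in shamActD. For the others they were 2.32 for Hspe1, 1.89 for Hsp90aa1 and 1.71 for Hspd1, 0.55 for Hspa8, 0.40 for Hspa5 and 0.26 for Hsp90ab1, and -0.25 for Dnajb1. Macrophage markers summed to 2387 CPM in 3dpi neutrophils, against 14.8 in shamActD, 93.5 in sham and 50.2 in 14dpi. In 3dpi T, NK and B cells they summed to 1587, 1599 and 1962 CPM. The median was 2285 UMIs per cell in 3dpi neutrophils and 13540 in those of shamActD. The part of these in the chaperone values was not tested. In 14dpi over shamActD, 2 of the 9 members with enough UMIs were counted as higher, against 7.64% of 8217 genes, and 0 were 2-fold lower (5.12%). Hspa1b was at 3.95-fold (1.02 to 33.9). Hspa1a had 24 UMIs against 0, so that it entered the count through 14dpi only, and its lower bound of 1.76-fold is short of 2-fold. With that bound in place of the ratio to 0, only Hspa1b passed, 1 of 9. From 3dpi to 14dpi, 8 of the 10 members were at least 2-fold lower, against 55.8% of the genes, and 0 were 2-fold higher (5.85%). Of these 8, 3 stayed past 2-fold with TMM scaling and 2 with centring on the median gene. The neutrophils of 3dpi were nearly all in 1 cluster (1807 cells) and those of the other libraries in 2.

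B cells numbered 760 in sham, 64 in shamActD, 131 in 3dpi and 337 in 14dpi. In sham over shamActD, 5 of the 10 members were at least 2-fold higher, against 18.4% of 9795 genes, and 0 were 2-fold lower (10.9%). Hsp90aa1 was at 879 CPM in sham, 260 in shamActD, 478 in 3dpi and 513 in 14dpi, a log2 ratio of 1.76 (1.48 to 2.04). Hspd1 (272 against 116 CPM) and Dnajb1 (2.17-fold) passed as well. The sham B cells included 191 in a cycling pro-B cluster and 45 in another of precursors, and in the mature cluster alone, an alternative chosen after seeing the data, the log2 ratios were 0.78 for Hsp90aa1, 0.57 for Dnajb1 and -0.42 for Hspd1. Clusters were named per library. The sham B cell with the most UMIs of each member lay in the integrated cycling cluster that was named microglia in shamActD and 3dpi. Hspa1a was at 28.0 CPM in sham and had 0 UMIs in shamActD, at least 3.94-fold higher. Hspa1b, with 9.45 CPM against 0 UMIs, was at least 1.33-fold higher, which is short of 2-fold. Both entered the count through their sham UMIs only, 148 and 50. Without Hspa1b the count was 4, and 3 had UMIs in both libraries. In 3dpi, 0 of 7 members with enough UMIs passed, against 7.27% of 4925 genes, and 0 were 2-fold lower (16.4%). In 14dpi, 2 of 8 passed, Hsph1 (log2 ratio 1.38, 0.46 to 2.44) and Dnajb1 (1.09, 0.26 to 2.02), against 7.84% of 7159 genes, and 0 were 2-fold lower (3.73%). In the mature cluster alone, 1 of these 2 stayed past 2-fold.

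**Figure D2:**
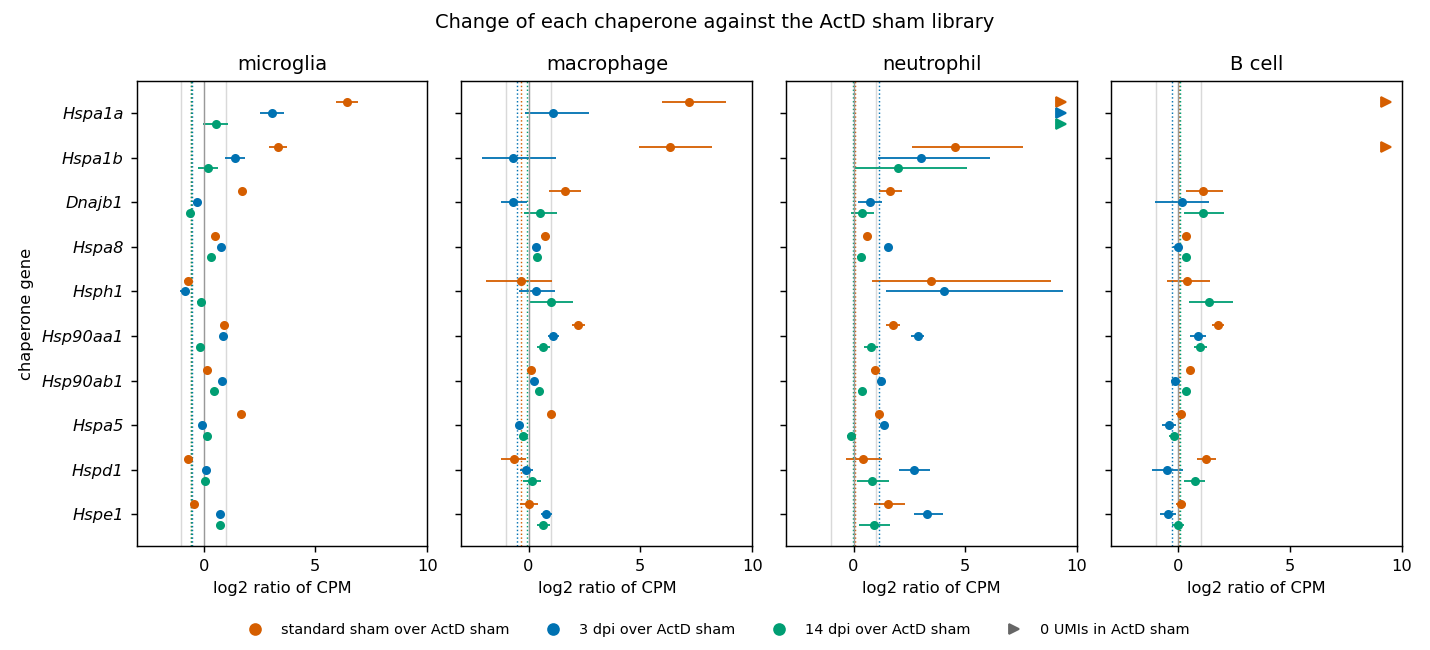
Log2 ratio of CPM of sham, 3dpi and 14dpi over shamActD for each chaperone in microglia, macrophages, neutrophils and B cells, with 95% counting intervals. Dotted lines mark the median over all genes, pale lines 2-fold, and triangles at the right edge members with 0 UMIs in shamActD. The ratios of Hspa1a and Hspa1b are highest for sham in microglia (6.40 and 3.33) and macrophages (7.19 and 6.31), while in neutrophils the whole 3dpi series is moved to the right with its median of 1.13.

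To order the members by protocol, the sham interval was set against those of every ActD library of the same class. In microglia the sham interval lay above all 3 ActD libraries for 5 of the 10 members, against 6.48% of 13537 genes. The folds over the highest ActD library were 10.2 for Hspa1a, 3.81 for Hspa1b, 3.29 for Dnajb1, 2.84 for Hspa5 and 1.05 for Hsp90aa1. In macrophages 6 members stood apart (2.47% of genes), by 68.9 for Hspa1a, 48.2 for Hspa1b, 2.17 for Hsp90aa1, 2.14 for Dnajb1, 2.03 for Hspa5 and 1.25 for Hspa8. In neutrophils 3 did so (3.21% of genes), Hspa1b by 2.81, Dnajb1 by 1.86 and Hspa1a by 1.52. Those of Hspa1a and Hspa1b rest on 1 sham cell. Without it, an alternative chosen after seeing the data, Hspa1a was at 25.9 CPM in sham, below the 28.2 of 3dpi (27.3 without its own highest cell), and Hspa1b at 14.0. The 3 in B cells (6.00% of genes) were others, Hsp90aa1 by 1.71, Hspd1 by 1.42 and Hsp90ab1 by 1.13. Since clusters were named per library, cells of the integrated cycling cluster were named B cells in sham but microglia in shamActD and 3dpi. The 14dpi B cell class held 337 cells, and 520 when clustered at resolution 1.2. Whether cycling B-lineage cells of the other libraries lay outside their B cell classes was not examined. In the mature cluster alone, 0 of the 3 members past 2-fold with UMIs in both libraries (Hsp90aa1, Hspd1 and Dnajb1) stayed 2-fold above shamActD. Hsp90ab1 was not among those, and the comparison of intervals was not repeated in that cluster. By their intervals, Hspa1a, Hspa1b, Hspa5, Dnajb1 and Hsp90aa1 therefore stood above all ActD libraries in microglia and macrophages, Hsp90aa1 in microglia by only 1.05-fold. Dnajb1 did so in neutrophils as well. The sham intervals of Hsph1 and Hspe1 lay above those of all other libraries in 0 of 6 classes, of which T cells and monocytes had no shamActD group.

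Monocytes and T cells were absent from the shamActD classes, so sham was set against 3dpi and 14dpi only. In monocytes, 0 of 10 members had a sham interval above both injured libraries (3.90% of genes). Hspa1a was at 50.6, 43.6 and 52.8 CPM, Hspa1b at 31.5, 21.8 and 41.1 CPM and Dnajb1 at 53.2, 26.6 and 57.8 CPM in sham, 3dpi and 14dpi. The sham monocytes were thus not apart from the injured libraries, where injury and ActD cannot be told apart. The monocyte classes also differed. Neutrophil markers summed to 5545 CPM in those of sham, 1692 in 3dpi and 2108 in 14dpi. The 3dpi class held 63 cells, and 593 when clustered at resolution 1.2. The part of this in the values was not tested. In T cells, of which sham held 26, the count was also 0 of 10 (2.96% of genes), with Hspa1a at 17.4 CPM from 3 UMIs in sham, 22.1 in 3dpi and 6.74 in 14dpi. A further 144 sham cells formed part of cluster 6, led by H2-Eb1, H2-Aa and Cd7. The marker lists named them plasmacytoid dendritic cells. That name is not used here, since the monocyte markers summed to 2796 CPM in them, the plasmacytoid dendritic cell markers to 2119 and the microglial markers to 1945. They held 200 CPM of Hspa1a, and mast cells or basophils held 15.4 CPM. Dendritic cells of 3dpi and 14dpi held 47.0 and 40.0 CPM, and the 14dpi one with the most Hspa1a UMIs was in cluster 6 too. Ordered by Hspa1a within the sham library, macrophages (935 to 1124 CPM, counting interval) were followed by the sham cells of cluster 6 (178 to 224) and microglia (161 to 172), and then by monocytes (41.1 to 61.6) and neutrophils (35.9 to 50.5), whose intervals overlapped, B cells (23.6 to 32.9), T cells and mast cells or basophils.

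**Figure D3:**
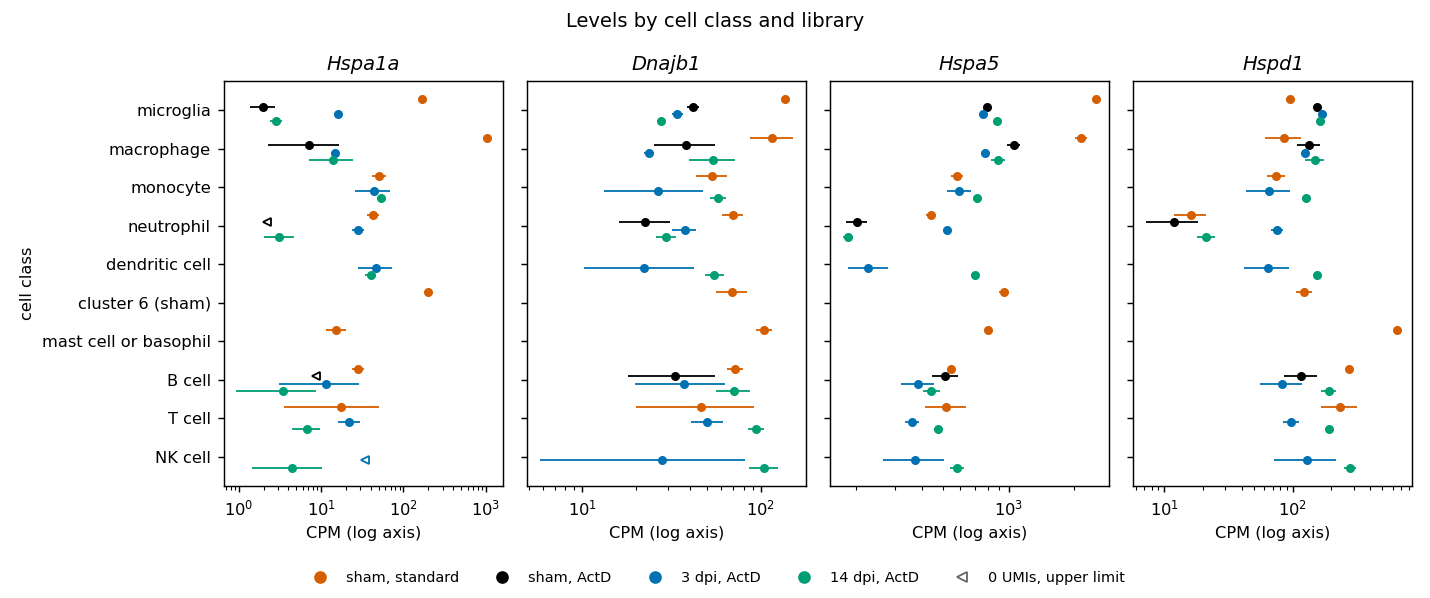
Levels of Hspa1a, Dnajb1, Hspa5 and Hspd1 in CPM on a log axis by cell class and library, with 95% counting intervals. Open triangles mark the upper limit of classes with 0 UMIs. Cluster 6 stands for its 144 sham cells, whose assigned name is not used. The sham points of Hspa1a stand far to the right in macrophages (1026 CPM) and microglia (166 CPM) but among the injured libraries in monocytes (50.6 CPM against 43.6 and 52.8).

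The injured libraries were also compared in the other classes, with no test of differences between classes. At least 2-fold higher in 14dpi were 1 of 10 members in T cells (7.45% of genes), 2 of 8 in B cells (19.6%), 4 of 9 in NK cells (19.8%), 4 of 10 in dendritic cells (29.6%), 2 of 10 in monocytes (19.5%) and 2 of 10 in macrophages (28.9%). Centring on the median gene took the 4 in NK cells and in dendritic cells to 2 each, and with TMM or centring 0 of the 2 in monocytes and in macrophages stayed. With clustering at resolution 1.2, 1 of the 4 in dendritic cells stayed. Apart from T cells, 0 members of these classes were 2-fold lower, against 6.57% of genes in B cells, 7.3% in NK cells, 9.92% in dendritic cells, 7.23% in monocytes and 14.8% in macrophages. Hsph1, the HSP70 exchange factor, was among them in 5 of these classes. In T cells it was at 38.6 CPM in 3dpi and 123 in 14dpi (log2 ratio 1.67, 1.32 to 2.04), in NK cells at 27.9 and 107, in B cells at 19.9 and 67.8, in dendritic cells at 14.8 and 58.6 and in monocytes at 24.2 and 52.6. The 3dpi values outside T cells came from 3 to 10 UMIs. The dendritic cell classes also differed in their clusters and markers. The cell with the most UMIs of each member lay in cluster 6 in 14dpi and in cluster 21 in 3dpi. In 14dpi the monocyte markers summed to 3456 CPM and the dendritic cell markers to 1417, against 512 and 4729 in 3dpi. The part of this in the chaperone values was not tested. In T cells, Hspa1a (-1.71) and Hspa1b (-1.11) were 2-fold lower, against 6.47% of genes, so the exchange factor and the inducible HSP70 genes moved in opposite directions there.

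Among single microglia the inducible HSP70 signal of sham was widespread but uneven. Without thinning, 43.5% of sham and 1.91% of shamActD microglia had an Hspa1a UMI. After each cell was thinned to 1000 UMIs, which left out 1 cell per library, the share was 11.2% (296 of 2640, exact 95% interval 10.03 to 12.48) in sham, 0.185% (3 of 1620) in shamActD, 1.82% in 3dpi and 0.372% in 14dpi. The share in sham was 37.9% of macrophages and 14.6% of the sham cells of cluster 6, but 1.58% of B cells and 1.55% of neutrophils of the same library, levels at which free RNA in the droplets cannot be told apart from expression. The tenth of the cells with the highest counts held 60.6% of the Hspa1a UMIs of sham microglia. Hspa1b was detected in 6.08% of the thinned sham microglia with Hspa1a and in 2.18% of those without, and Dnajb1 in 12.5% and 9.09%.

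Cells of each library were also ranked by their UMIs of the IEGs and divided into 4 equal groups. In sham, Hspa1a was at 222 CPM in the highest and 127 in the lowest group (log2 ratio 0.80, 0.66 to 0.94), and Hspa1b at 47.0 and 23.4 CPM (1.01, 0.68 to 1.33). The other 8 members lay between -0.31 and 0.56, with a median over all genes of 0.20 and 8.61% of genes at least 2-fold higher. Within that library the inducible HSP70 genes thus followed the IEGs more than Dnajb1 (-0.31) or Hspa5 (0.24) did, although all 4 were higher than in shamActD. In 3dpi the ratio of Hspa1a between the groups was 0.78 (0.23 to 1.35). In 14dpi, Hspa1a was at 1.02 (0.39 to 1.68), Hspa1b at 1.28 (0.62 to 1.98) and Dnajb1 at 0.46 (0.23 to 0.68). There the median over all genes was 0.05, with 1.42% of genes at least 2-fold higher. In shamActD, Hspa1a was at 0.02 with a wide interval (-1.83 to 1.81). The higher ratio in the upper group was thus not particular to sham. Cells with at least 3 cell cycle genes were set against the rest. In shamActD, 49 such cycling microglia had 1019 CPM of Hsp90aa1 against 254 in the other 1571 (interval of the log2 ratio 1.91 to 2.10), with Hspd1 at 0.92 and Hsph1 at 0.72, a median over all genes of -0.17 and 13.7% of genes at least 2-fold higher. Among all shamActD microglia, 1 cell of the cluster led by cell cycle genes held 308 of 5402 Hsp90aa1 UMIs. It also held 118 of 2775 Hspd1 UMIs and 27 of 552 Hsph1 UMIs. How far these ratios rest on that cell was not examined. The integrated cycling cluster was named B cells in sham. B cell markers summed to 367 CPM in shamActD microglia, against 280 in sham, 54.6 in 3dpi and 136 in 14dpi. Whether the cycling group mixed cell lineages was not examined. In 3dpi, 384 cycling cells stood against 604, and Hsp90aa1 was at 0.53 (0.48 to 0.59), Hsph1 at 0.37 and Hspa1a at -0.88.

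**Figure D4:**
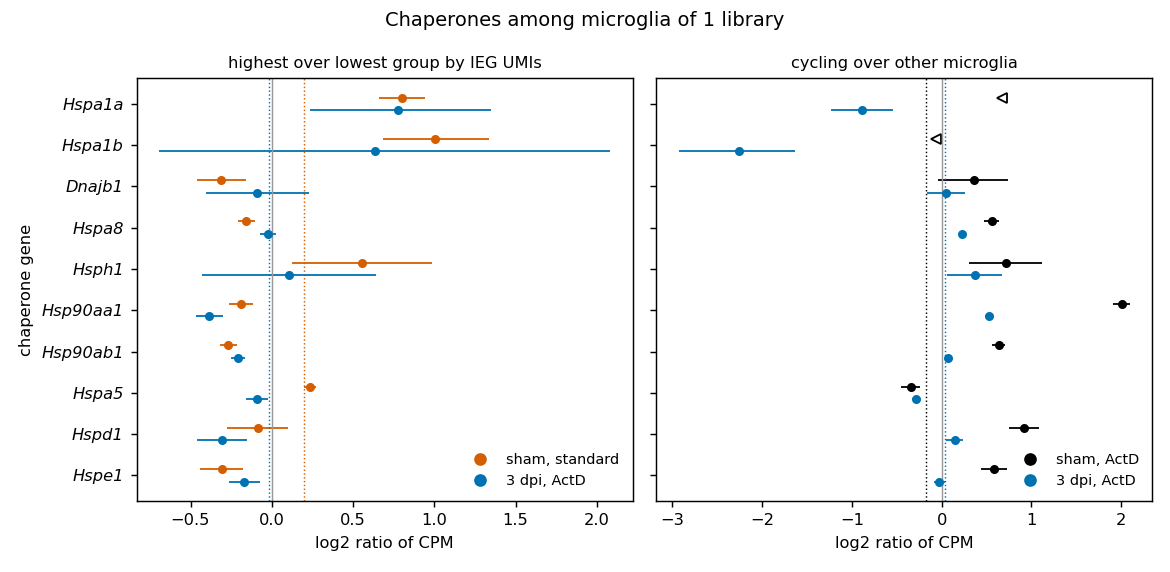
Log2 ratio of CPM within the microglia of single libraries, with 95% counting intervals and dotted lines at the median of all genes. The left panel sets the highest against the lowest of 4 groups by IEG UMIs, where Hspa1a (0.80) and Hspa1b (1.01) lead in sham, and the right panel sets cycling against other cells, where Hsp90aa1 leads in shamActD (1019 against 254 CPM), with open triangles for members with 0 UMIs in cycling cells.

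The members were read beside the other chaperones and stress genes of microglia that had 200 or more UMIs over both libraries. In sham over shamActD, where 4.67% of such genes were at least 2-fold higher, 19 of 19 IEGs were higher, with a median log2 ratio of 5.65. Among the chaperone lists, at least 2-fold higher were 1 of 20 further genes of the cytosolic HSP70 system, 0 of 15 HSP90 co-chaperones, 1 of 3 small heat-shock proteins, 4 of 25 genes of the endoplasmic reticulum and the unfolded protein response, 0 of 14 mitochondrial chaperones and proteases and 0 of 13 subunits of the chaperonin TRiC and of prefoldin. The highest were Hspb1, the small heat-shock protein HSP25 (144 against 0.90 CPM), Ppp1r15a, a phosphatase subunit that ends the integrated stress response (log2 ratio 6.79), and Ddit3 (2.12), Atf4 (2.09) and Dnajb4 (1.86). The lowest were Hspb3 (-1.48), Tomm70a, a mitochondrial import receptor (-1.29), Bag5 (-1.13), Dnaja3 (-1.11) and Chordc1 (-1.07). The members with the protocol difference therefore had company in single genes of stress responses, while the medians of the endoplasmic reticulum list (-0.46) and of TRiC and prefoldin (-0.49) were near the -0.54 of all such genes. Ddit3, Atf4 and Ppp1r15a belong to the stress responses that converge with the unfolded protein response.

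In 3dpi over shamActD, where 10.7% of such genes were 2-fold higher, 16 of 18 IEGs were higher too (median 2.16), as were 17 of 20 cell cycle genes. Of the chaperone lists, 1 of 19 HSP70-system genes, 2 of 25 of the endoplasmic reticulum and 1 of 13 of TRiC and prefoldin were 2-fold higher, and 11 of these last 13 had a ratio above 1. Ppp1r15a (2.43), Pfdn1 (1.39), Ero1l (1.27), Bag1 (1.11) and Pfdn6 (0.99) were the highest, and Dnajb5 (-2.25), Dnajb2 (-1.99), Herpud1 (-1.94), Dnajb9 (-1.60) and Ppid (-1.44) the lowest. In 14dpi over shamActD, 0 genes of the chaperone lists were 2-fold higher (3.84% of all such genes), and 3 of 17 IEGs were. The values of Hspa1a in 3dpi and 14dpi microglia stand beside these IEG counts, and the part of the IEG response in them was not tested.

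Over the 28 combinations of class and library, which share libraries, depth and total composition, the gene most like Hspa1a was its neighbour Hspa1b (Pearson r of log2(CPM + 10) = 0.912), followed by Klf4 (0.883), Klf6 (0.830), Jun (0.825) and Fndc7 (0.822) among 11892 genes. Most like Hspa8 were Kxd1 (0.921), Slc25a3 (0.911), Rack1 (0.903), Hint1 (0.898) and Rpl7a (0.898). Most like Hspd1 were C1qbp (0.947), Pa2g4 (0.940), Fkbp4 (0.935), Set (0.933) and Atic (0.933). Among the members, r with Hspa1a was 0.574 for Hspa5, 0.487 for Dnajb1 and -0.0941 for Hspd1, whereas r between Hspd1 and its partner Hspe1 was 0.906.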

How the data were processed

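The authors deposited 1 table of UMI counts per gene and cell barcode for each library, made with Cell Ranger on mm10 per the labels. The counts were not normalized, and the barcodes were already limited to called cells with at least 500 UMIs each. The study's filters had not been applied and were applied here (at least 600 genes, at most 10% mitochondrial UMIs, no cell in which Itgam and a lymphoid marker were both detected), and the highest Scrublet scores were removed at 0.8% per 1000 cells (scanpy 1.11.5). Libraries were integrated with Seurat 5.3.0 (2000 features, 50 dimensions, resolution 0.6) with all chaperone, IEG and cell cycle genes left out of the features, and clusters were named per library from marker lists. Library totals ranged from 27447471 to 129935880 UMIs. CPM of summed UMIs has exact Poisson 95% intervals, ratios exact conditional Poisson intervals (scipy 1.17.1), shares exact Clopper-Pearson intervals, and a count of 0 a floor of 3 counts. Intervals were tested on simulated Poisson counts only, which hold no variation between cells or libraries. A member was counted at 2-fold or more with at least 20 UMIs in the pair. TMM factors came from edgeR 4.0.16. All 10 members are named, and of the other lists the 5 highest and 5 lowest in microglia. The members and lists were chosen with earlier results of these data known. Symbols were placed on GENCODE M21 (GRCm38), and promoters are from RefSeq.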

Additional observations from a re-analysis of the deposited data

Results flagged for a closer look

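Some members had log2 ratios of 14dpi over 3dpi that were past 2-fold in opposite directions in different cell classes, with 1 library per time point, so the differences between classes were not tested. Hspa1b, inducible HSP70, was at 1.39 in macrophages but at -1.11 in T cells, -1.19 in microglia and -1.05 in neutrophils. The macrophage value sets 14dpi cells of 1 cluster against 3dpi cells mostly of another. In those 14dpi cells the microglial markers (6997 CPM) exceeded the macrophage markers (5748 CPM). The microglial value of Hspa1b rests on 1 cell of 3dpi. Hspa5 (BiP) was at 1.62 in dendritic cells and -1.51 in neutrophils. In the dendritic cell class of 14dpi, monocyte markers (3456 CPM) exceeded dendritic cell markers (1417 CPM). In that of 3dpi they stood at 512 and 4729 CPM. The dendritic cell with the most UMIs of each member lay in cluster 6 in 14dpi and in cluster 21 in 3dpi. Hsph1, the HSP70 exchange factor, was at 1.77 in B cells, 1.94 in NK cells, 1.67 in T cells, 1.98 in dendritic cells and 1.12 in monocytes but at -2.13 in neutrophils. Hspd1, mitochondrial HSP60, was at 1.21 in B cells, 1.11 in NK cells and 1.28 in dendritic cells but at -1.84 in neutrophils. The median over all genes in neutrophils was -1.17 in the same comparison, and TMM scaling, which adds 1.12, moved the neutrophil values of Hspa5, Hsph1 and Hspd1 to -0.39, -1.01 and -0.72. The TMM shift was -0.31 in B cells, -0.11 in NK cells and -0.17 in T cells. It was -0.28 in dendritic cells, -0.23 in monocytes and -0.51 in macrophages. Of all genes, 55.8% were 2-fold lower in neutrophils. In the classes with a higher member, 7.45% (T cells) to 29.6% (dendritic cells) were 2-fold higher. The share of genes with such opposite directions was not computed.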

How the results depend on the processing

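No paired analysis was possible because each condition had 1 library. In microglia, the count of members at least 2-fold higher in sham over shamActD was 4 and lay between 4 and 6 under every alternative run, and the count of members 2-fold lower was 0 throughout in the 3 comparisons with shamActD. The count in 3dpi over shamActD, 2, became 6 with TMM scaling and with centring on the median gene, and 1 with the stricter cell filter, without the cluster led by Lpl and Spp1, and without the highest cell of each library. The count in 14dpi over shamActD, 0, became 3 with TMM and with centring and 2 without the cluster led by Lpl and Spp1. Alternatives that leave out a cluster or a cell were chosen after seeing the data. Among the log2 ratios of members past 2-fold, the following changed sign. Hspa1b in 3dpi over shamActD microglia became -0.39 with each library clustered alone, -0.0101 with the stricter filter and -0.0391 without that cluster, and in 14dpi over 3dpi microglia it became 0.26, 0.23 and 1.09 under the same settings. Its neutrophil value in 14dpi over 3dpi became 0.0753 with TMM and 0.117 with centring, and its macrophage value -0.30 in the border-associated cluster alone. Hspe1 in sham over shamActD neutrophils became -0.22 with equal weight of cells, Hspd1 in sham over shamActD B cells -0.42 in the mature cluster alone, and Hspd1 in 14dpi over 3dpi neutrophils 0.0332 in 1 of their 2 clusters. The cause of these changes was not tested. With 64 B cells, 65 macrophages and 102 neutrophils in shamActD, members under about 20 UMIs are limited by counting there.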

Other observations

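Outside microglia, the same lists gave values beside the members. In sham over shamActD B cells, 20 of 20 cell cycle genes were at least 2-fold higher, with a median log2 ratio of 5.99. Clusters were named per library, and the integrated cycling cluster was named B cells in sham. In these B cells 0 of 13 TRiC and prefoldin genes were 2-fold higher, although 12 of the 13 had a ratio above 1. In microglia the same comparison gave a median of -3.79 for the cell cycle genes, and the integrated cycling cluster was named microglia in shamActD. In 3dpi over shamActD macrophages, 2 of the 13 TRiC and prefoldin genes were 2-fold higher and 10 had a ratio above 1, with a median of 0.54 against -0.41 over all such genes. In microglia of 14dpi over 3dpi, the J-domain gene Dnajb2 was at 1.19, Dnajb9, a J-domain protein of the endoplasmic reticulum, at 0.91 and Herpud1, of endoplasmic reticulum degradation, at 0.88, while Ppp1r15a was at -2.85, Hspb1 at -2.34 and the prefoldin genes Pfdn1, Pfdn6 and Pfdn4 at -1.36, -1.14 and -1.09.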
